A study of Drosophila melanogaster with 19 samples.

Results

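A set of 219 of the 12679 Drosophila melanogaster genes measured stood higher in sorted btl-enhancer cells than in whole embryos in both control conditions of a ttk mis-expression study. The genes were chosen from the values themselves. Each array was centred on its own median over all genes, and a gene was kept when its mean in control cells exceeded its mean in control embryos by 2 or more on the log2 scale in both experiments, with every control cell array above every control embryo array. A difference of 1 on this scale is a 2-fold change in value. The control enrichment is therefore a description of how the genes were picked, and the arrays of the ttk conditions, which took no part in the choice, carry the tests.

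RNA was measured on 19 Affymetrix arrays, of RNA from whole embryos or from cells sorted by fluorescence, 100000 per condition. All embryos carried btl-enh-RFPmoe, a red fluorescent moesin fusion driven by the enhancer of breathless. In the mutant experiment, at 25 °C with 7:40 h of collection and 5:20 h of ageing per the labels, the groups were 2 arrays of control embryos and 3 of control cells (btl-enh-RFPmoe), and 2 of embryos and 2 of cells labelled ttk mutant (ttk2D50 btl-enh-RFPmoe), with balancers marked by twi GFP. In the over-expression experiment, at 29 °C per the labels, they were 3 arrays of control embryos and 2 of control cells (btl-GAL4 btl-enh-RFPmoe), and 3 of embryos and 2 of cells labelled over-expression (btl-GAL4 UAS-ttk btl-enh-RFPmoe). The growth notes add UAS tau GFP to the btl-GAL4 stock and give the over-expression control as a UAS ttk stock without the driver. The strain field of both control cell samples of this experiment names the mutant strain, and these samples were grouped by their titles. The study notes that the enhancer is also active outside trachea and midline, among others in lateral ectoderm, endoderm and amnioserosa, so the sorted cells are a mixture. Embryo RNA and cell RNA were extracted by different procedures, and only the cells were dissociated and sorted. These differences cannot be told apart from the difference between cells and embryos, and in such bulk samples fewer cells of a type and less RNA per cell cannot be told apart either.

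The tracheal system is the branched network of epithelial tubes that carries air through the fly. Its cells are specified by Trachealess, and their branching depends on Breathless, a receptor for fibroblast growth factor that is also expressed in the ventral midline. Tramtrack, the product of ttk, is a zinc-finger transcription factor that acts in cell fate decisions and in tracheal tube formation.

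The 9 genes that could be paired with a name were not among the 219, but several of them mark the material. In control cells trh, the gene of Trachealess, stood above control embryos by 1.61 in the mutant experiment and 2.10 in the over-expression experiment. The corresponding values were 1.13 and 2.59 for btl, and 1.68 and 2.42 for sim, the midline regulator single-minded. The GATA factor gene srp, which is known from haemocytes and fat body, differed by 3.19 and 1.88. The gene Adp differed by only 0.24, with the groups overlapping, and by 0.79. The mesoderm genes twi and Mef2 ran the other way, by -0.81 and -1.85 for twi and by -0.18 and -0.92 for Mef2. The means of trh, btl, sim and srp were thus higher in the control cells. In the mutant experiment, however, the control cell and embryo arrays of trh, btl, twi and Mef2 overlapped. In the labelled ttk arrays trh differed by 1.15 (SE 0.25, adjusted p = 0.0216, limma) and 1.91 (SE 0.35, adjusted p = 0.0133) and srp by 2.00 (SE 0.21, adjusted p = 0.0030) and 2.09 (SE 0.42, adjusted p = 0.0161). The tracheal gene dys was higher in control cells by 1.69 and 1.38, but by 0.42 (SE 0.33, adjusted p = 0.353) and 0.48 (SE 0.44, adjusted p = 0.422) in the labelled ttk arrays, where it was not called. In those arrays limma called none of twi, Mef2 and Adp. The differences were -1.26 (SE 0.42, adjusted p = 0.0638) and -1.07 (SE 0.39, adjusted p = 0.0806) for twi. For Mef2 they were -0.37 (SE 0.28, adjusted p = 0.336) and -0.33 (SE 0.22, adjusted p = 0.271). For Adp they were 0.55 (SE 0.29, adjusted p = 0.175) and 0.50 (SE 0.21, adjusted p = 0.106). The part that each of these cell types takes in the 219 genes was not tested.

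The ttk transcript did not follow the labels. Its centred values were 4.25 and 4.24 in the cells labelled mutant against 3.49, 3.37 and 3.38 in control cells, and 2.88 and 3.09 in the cells labelled over-expression against 3.70 and 3.83 in their controls. Embryos labelled over-expression, at 2.77, 2.30 and 2.99, also lay below their controls, which lay between 3.15 and 3.19. Embryos labelled mutant, at 3.85 and 3.50, were near the higher of their controls, at 3.84 and 1.38. The study selected homozygous mutant embryos by the absence of balancer fluorescence, which these values do not measure. Whether the probes lie in the part of the gene that the allele changes or in the part that the transgene carries was not known here, so all groups are named as labelled and every direction below is one between labels. In the mutant controls replicates differed widely in embryos and in cells, and the 2 control embryo arrays alone cannot show which of them stands apart. Control embryo replicate 2 of the mutant experiment gave 1.38 for ttk and -0.57 for srp, against 3.84 and 1.56 in replicate 1, and 104 of the 219 genes differed by more than 1 between these arrays. That count was not made over all genes. Their median SD in this group was 0.411, the largest of any group, against 0.645 among the 219. Without replicate 2 the rule for the set found 304 genes, 195 of them among the 219, and without replicate 1 it found 188, of which 173 were shared. Control cell replicate 3 was at 1.77 for trh and 1.37 for twi, against 3.69 and 3.56 for trh and -0.46 and -0.35 for twi in replicates 1 and 2. Without it the rule found 246 genes, 216 of them among the 219.

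In the controls the enrichment of the 219 genes had a median of 2.89 and a range of 2.00 to 6.31 in the mutant experiment, and a median of 3.19 and a range of 2.04 to 7.43 in the over-expression experiment. Over all genes the medians were 0.17 and 0.43. The rule alone passed 428 genes in the mutant controls (3.38% of all genes) and 609 in the over-expression controls (4.8%), so the 219 genes made up 51.2% of the first list and 36.0% of the second. Taking the smaller of its values in the 2 experiments, 80 genes reached 3, 26 reached 4 and 8 reached 5.

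FBgn0054003, at 2.00 and 2.69, and FBgn0035202, at 2.01 and 2.36, lay just inside it. FBgn0027930, at 1.99 and 2.25, and FBgn0014380, at 1.99 and 2.19, lay just outside. Within 0.25 of the threshold 47 genes were inside and 86 outside. The files do not pair FlyBase numbers with gene names, so most genes are given by number only.

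The median level of these genes in embryos was near that of all genes. On the 10 embryo arrays the median of the 219 genes lay between percentiles 47.1 and 55.3 of all genes, and 88 to 124 of them were at or below the array median. On the 9 cell arrays the median lay between percentiles 77.1 and 91.2, and 13 to 42 genes were at or below the array median. By definition 25% of all genes lie in the upper quartile of their array. Of the 219 genes 17 to 54 (7.8% to 24.7%) did so in embryos and 116 to 163 (53.0% to 74.4%) in cells. The rule asked for control embryos below control cells by 2 or more, so few high values in embryos are favoured by the choice itself.

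**Figure D1:**
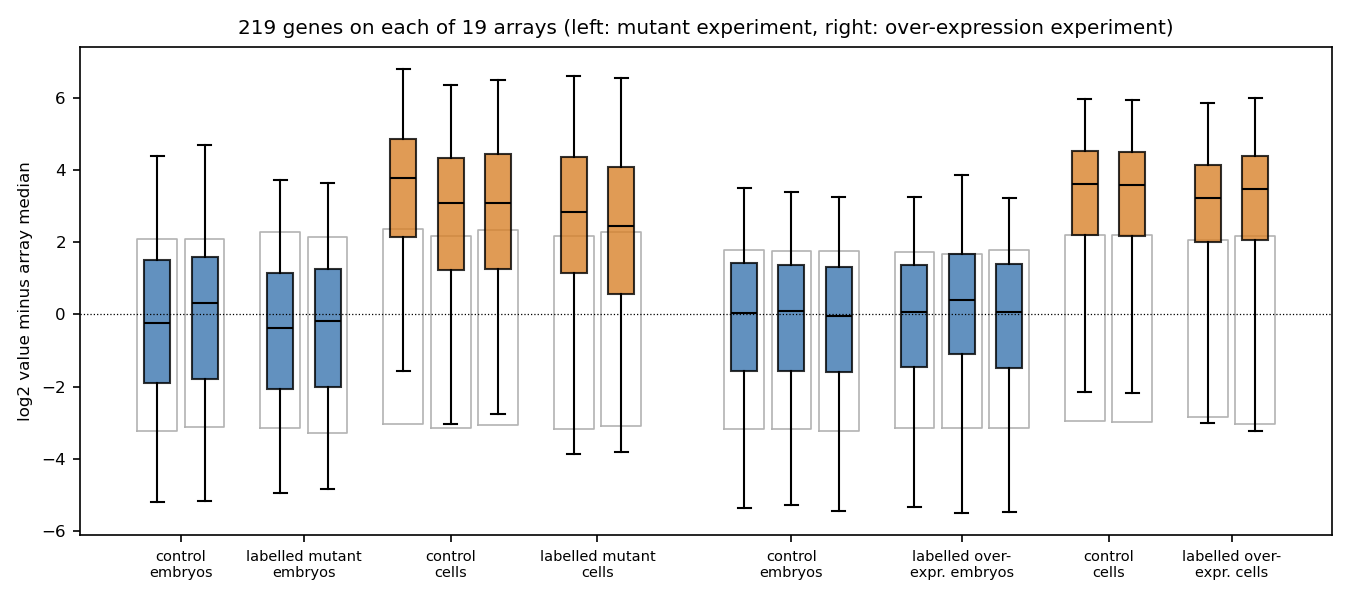
Log2 values of the 219 genes on each of the 19 arrays, after subtraction of the array median. Coloured boxes span the quartiles with the median as a line, whiskers run to the lowest and highest gene, blue is embryos and orange is cells; grey outlines span the quartiles of all genes. The medians lie between -0.37 and 0.39 on embryo arrays and between 2.44 and 3.77 on cell arrays.

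Array by array, the median of the 219 genes was -0.23 and 0.31 in the control embryos of the mutant experiment and -0.37 and -0.19 in the embryos labelled mutant. In the cells it was 3.77, 3.08 and 3.09 in the controls and 2.83 and 2.44 in those labelled mutant. Cells and embryos did not overlap, which the rule had fixed in advance for the controls. Both arrays of cells labelled mutant lay below all 3 control cell arrays. In the over-expression experiment the embryo medians were 0.04, 0.10 and -0.03 in the controls and 0.05, 0.39 and 0.07 in those labelled over-expression, while the cell medians were 3.61 and 3.58 in the controls and 3.21 and 3.46 in those labelled over-expression. Here too the labelled cells lay below their controls, by less than in the mutant experiment. Since the genes were chosen for high values in control cells, lower values in the labelled cells are favoured by the choice itself.

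The genes varied more between replicates than a typical gene in 6 of the 8 groups. The median SD was 0.645 among the 219 genes and 0.411 among all genes in the control embryos of the mutant experiment, and 0.447 and 0.273 in its control cells. In the over-expression controls the spread was small, with 0.060 and 0.101 in cells and 0.095 and 0.080 in embryos. The deviations were shared by many of the genes. In control cells of the mutant experiment, 18 genes were higher in replicate 2 than in replicate 1 and 4 were higher in replicate 3 than in replicate 1, against 23.9% and 40.1% of all genes. In the cells labelled mutant 26 genes (11.9%) were higher in replicate 2 than in replicate 1, against 58.9% of all genes.

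Whether these genes were also higher in cells than in embryos where ttk was mis-expressed was tested with limma on the arrays of the labelled ttk groups alone, with p-values adjusted over all 12679 genes. In the arrays labelled mutant, 201 of the 219 genes were higher in cells at an adjusted p of 0.05 or below, or 91.8%, against 19.1% of all genes. In the other direction 1 gene was called (0.457%, against 11.9% of all genes). On the deposited scale, which is not centred, the counts were 139 higher and 12 lower, against 359 and 9887 of all genes. The median difference was 2.78, with quartiles of 1.74 and 3.80 and a range from -0.85 to 5.94, against a median of 0.19 over all genes. The same rule as in the controls, a difference of 2 or more with the groups apart, was met by 153 of them (69.9%, against 3.67% of all genes). Every cell array lay above every embryo array for 207 genes (94.5%, against 44.1% of all genes).

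In the arrays labelled over-expression, 212 genes were higher in cells, or 96.8%, against 33.3% of all genes, and 0 were called lower, by limma at an adjusted or at an unadjusted p of 0.05, against 7.56% of all genes at the adjusted p. The median difference was 2.74, with quartiles of 2.12 and 3.72 and a range from -0.77 to 7.72, against a median of 0.43 over all genes. A difference of 2 or more with the groups apart was found for 178 genes (81.3%, against 3.68% of all genes), and every cell array lay above every embryo array for 217 (99.1%, against 51.0%). Both tests were passed by 197 genes (90.0%, against 12.2% of all genes), the mutant test alone by 4, the over-expression test alone by 15 and neither by 3. Embryo replicate 2 labelled over-expression stood apart from replicates 1 and 3, with btl at -1.79 against -0.18 and -0.12. Without that array limma called 216 of the 219 genes higher in cells labelled over-expression, and 4976 of all 12679 genes. The p-values rest on the spread between the 2 or 3 arrays of each group, which limma moderates towards a spread estimated from all genes.

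Genes of the set, 1.73% of all genes, and other genes were about equally common among the largest differences of the labelled ttk arrays. In either ttk condition the gene with the largest difference of all 12679 was among the 219, and of the 219 genes with the largest difference 113 were shared with the set in the arrays labelled mutant and 116 in those labelled over-expression. A difference of 2 or more with groups apart was found in both ttk conditions for 134 genes of the set, of 184 among all 12679 genes, and in neither for 22 of the set. As a description across genes, which are not independent replicates, Pearson's r between the control difference and the difference in the labelled ttk arrays was 0.51 in the mutant experiment and 0.88 in the over-expression experiment. Between the mutant and over-expression arrays it was 0.38 over the 219 genes and 0.55 over all genes, where the narrow range left by the choice of the genes enters the first value. A set of 85 genes chosen by the mirror rule, lower in control cells by 2 or more, had medians of -1.83 in the arrays labelled mutant and -2.91 in those labelled over-expression.

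**Figure D2:**
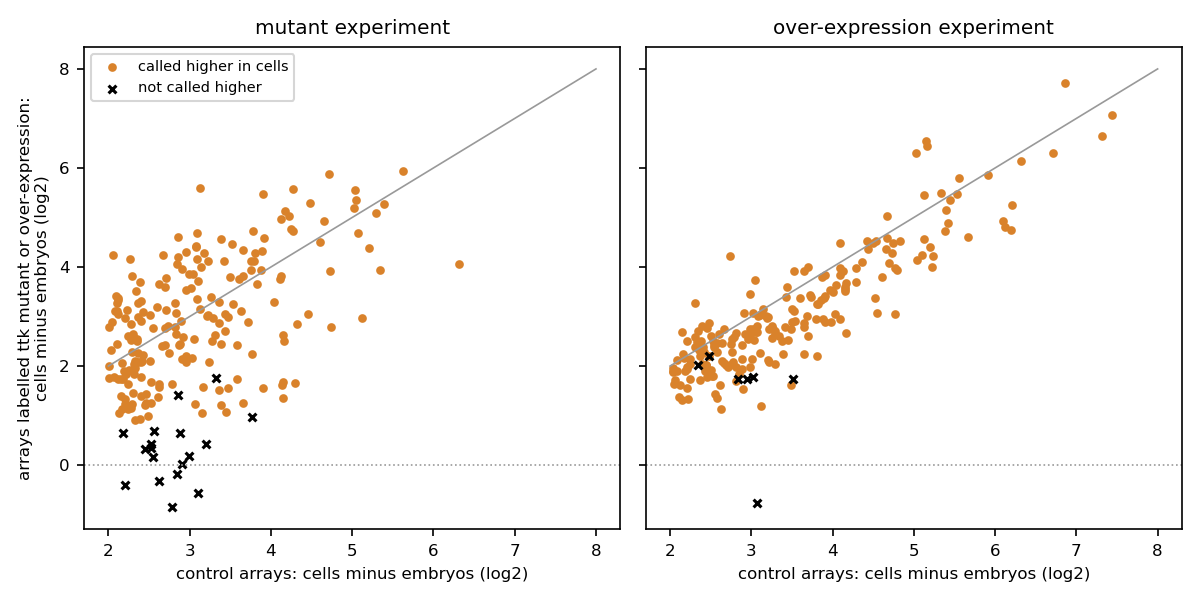
Cells minus embryos on the log2 scale in the control arrays (x axis, used to choose the genes) against the arrays of the labelled ttk condition (y axis) for each of the 219 genes. Orange points were called higher in cells by limma at an adjusted p of 0.05 and crosses were not, 18 in the mutant experiment and 7 in the over-expression experiment; the grey line marks equal values. Points scatter more widely around the line in the mutant experiment.

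FBgn0031389 led the set by the smaller of its control values and was the gene with the largest difference in the arrays labelled mutant. Its values in the mutant experiment were -4.07 and -1.61 in control embryos, -4.32 and -3.82 in embryos labelled mutant, 3.36, 2.97 and 2.03 in control cells and 2.47 and 1.28 in cells labelled mutant. In the over-expression experiment they were -2.74, -2.57 and -3.30 in control embryos, -2.76, -0.51 and -2.64 in embryos labelled over-expression, 4.43 and 4.47 in control cells and 4.42 and 4.94 in cells labelled over-expression. All cell arrays lay above all embryo arrays, by 5.94 (SE 0.43, adjusted p = 0.0011, limma) in the labelled mutant arrays and 6.65 (SE 0.75, adjusted p = 0.0052) in the labelled over-expression arrays. The next gene by control enrichment, FBgn0028545, differed by 5.27 (SE 0.37) and 6.14 (SE 0.65), with cells above embryos in both.

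For some genes the values in the 2 experiments lay far apart. FBgn0039484 was at -1.40, -1.30 and -2.33 in control cells of the mutant experiment and at -0.97 and -1.87 in cells labelled mutant, above the embryos, which lay between -4.68 and -3.73. In the over-expression experiment it was at 1.83 and 2.24 in control cells and at 3.29 and 4.02 in cells labelled over-expression, while all 6 embryo arrays lay between -4.93 and -3.58. Cells exceeded embryos by 2.41 (SE 0.34, adjusted p = 0.0065) in the arrays labelled mutant and by 7.72 (SE 0.38, adjusted p = 0.0019) in those labelled over-expression. FBgn0029167, which the study lists under immune system process, had the same shape, with differences of 3.03 (SE 0.34) and 7.07 (SE 0.55). The difference between the experiments, which also differ in temperature and stock, was not tested.

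Among the 219 genes 19 differed by less than 1 between cells and embryos in the arrays labelled mutant, 5 of them below 0, while 10893 of all 12679 genes were below 1 and 5280 below 0. Set against the controls, 11 of the 19 were lower by 1 or more in the labelled cells with the groups apart (5.7% of all genes were), 6 were higher by as much in the labelled embryos (11.3% of all genes were), 1 of these was in both counts, and 3 were in neither. Of the 19 genes 17 were called higher in cells in the arrays labelled over-expression, and 12 had a difference of 2 or more. Since the control arrays had been used to choose genes with high cells and low embryos, a movement towards a smaller difference is favoured by the choice itself.

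FBgn0031126 was the gene with the lowest value. It was at -2.62 and -2.83 in control embryos and at 0.46 and 0.06 in embryos labelled mutant, whereas the cells were at 0.85, -0.55 and -0.13 in the controls and at -0.58 and -0.59 in those labelled mutant. The labelled embryos were high, above both labelled cell arrays. The difference of -0.85 (SE 0.24, adjusted p = 0.044, limma) was the 1 called in the lower direction, and the call was lost without any single array, with adjusted p between 0.0777 and 0.165. The same gene was higher in cells labelled over-expression than in their embryos by 2.30 (SE 0.19, adjusted p = 0.0033).

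FBgn0026570 had the same course. It was at -0.49 and -1.46 in control embryos, at 1.94 and 1.24 in embryos labelled mutant, at 2.69, 1.64 and 2.05 in control cells and at 1.17 and 0.86 in cells labelled mutant. The labelled embryos lay above the labelled cells, with a difference of -0.57 (SE 0.31, adjusted p = 0.191), and in the arrays labelled over-expression the difference was 2.68 (SE 0.15, adjusted p = 0.0022).

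FBgn0038504 went the other way, through the cells. Control cells were at 4.59, 3.72 and 4.12 and cells labelled mutant at -0.01 and 0.71, while the embryos were at 1.94 and 0.36 in the controls and at -0.21 and 0.57 in those labelled mutant. The labelled cells lay at the level of the embryos, and the difference of 0.17 (SE 0.37, adjusted p = 0.736) was not called. In the over-expression experiment the cells were at 4.17 and 4.28 in the controls and at 3.62 and 3.99 in those labelled over-expression, above all embryo arrays, which lay between 1.69 and 1.99 (difference in the labelled arrays 1.92, SE 0.19, adjusted p = 0.0045).

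A single gene was below 0 in the arrays labelled over-expression. FBgn0035791 was at -4.38, -4.53 and -5.09 in control embryos and at -1.56, -2.99 and -1.21 in embryos labelled over-expression. Its control cells were at -1.55 and -1.65 and the cells labelled over-expression at -2.14 and -3.24. The labelled embryos lay far above their controls and overlapped the labelled cells, with a difference of -0.77 (SE 0.63, adjusted p = 0.369). Its cells labelled mutant lay above the embryos labelled mutant by 2.42 (SE 0.30, adjusted p = 0.0046). The next lowest gene, FBgn0034759, had a difference of 1.14 (SE 0.33, adjusted p = 0.0442), and its call was lost without any 1 embryo array or without cell replicate 1, with adjusted p between 0.0555 and 0.135.

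**Figure D3:**
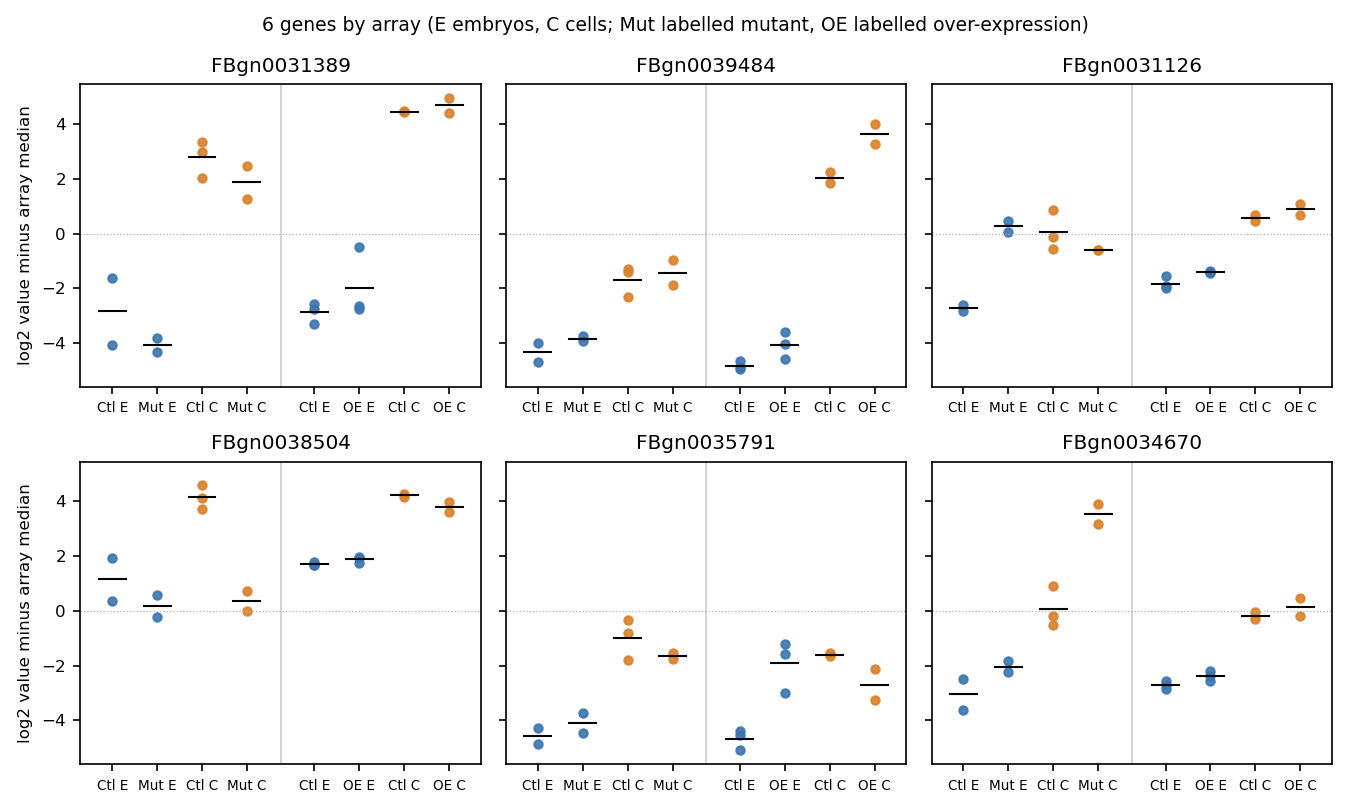
Log2 values minus the array median of 6 genes by array, with the mutant experiment left of the vertical line and the over-expression experiment right of it. Points are arrays, bars are group means, blue is embryos (E) and orange is cells (C); Ctl is control, Mut labelled mutant and OE labelled over-expression. In FBgn0031126 the embryos labelled mutant, at 0.46 and 0.06, reach the level of the cells, whereas in FBgn0038504 the cells labelled mutant, at -0.01 and 0.71, lie at the level of the embryos.

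Set directly against their controls, the 219 genes had medians below that of all genes in the cells and in the embryos labelled mutant. These comparisons are given without a test, because the control arrays had chosen the genes. In the cells labelled mutant the median difference from control cells was -0.49, against 0.01 over all genes. Of the 219 genes 50 were lower by 1 or more with the groups apart (22.8%, against 5.7% of all genes), and 7 were higher (3.2%, against 5.33%). Without control cell replicate 2 the latter count was 3.

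In the embryos labelled mutant the median was -0.44, against -0.02 over all genes, with 47 genes lower (21.5%, against 8.15%) and 16 higher (7.31%, against 11.3%). These counts leaned on single arrays. Without control embryo replicate 2 the counts were 19 lower and 15 higher. On the deposited scale, not centred on the array median, 24 genes were lower and 24 higher. Lower genes numbered 90 without control embryo replicate 1 and 72 without labelled mutant embryo replicate 2, and higher genes numbered 36 without control embryo replicate 1. Of the 50 genes lower in cells, 15 (30.0%) were also lower in embryos, which is 31.9% of the 47, while among all genes the shares were 41.5% and 29.0%.

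The shifts were smaller in the over-expression experiment. In cells labelled over-expression the median was -0.26, against -0.08 over all genes, with 10 genes lower by 1 or more (4.57%, against 1.32%) and 8 higher (3.65%, against 1.99%), or 4 higher without cell replicate 2. In embryos labelled over-expression the median was 0.13, against -0.09 over all genes, with 16 genes higher (7.31%, against 3.65%) and 2 lower (0.913%, against 1.01%). Without embryo replicate 2, in which the median of the 219 genes was 0.39, the counts were 7 and 1. In none of the 4 comparisons did 104 genes (47.5%, against 70.4% of all genes) move by 1 with the groups apart.

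**Figure D4:**
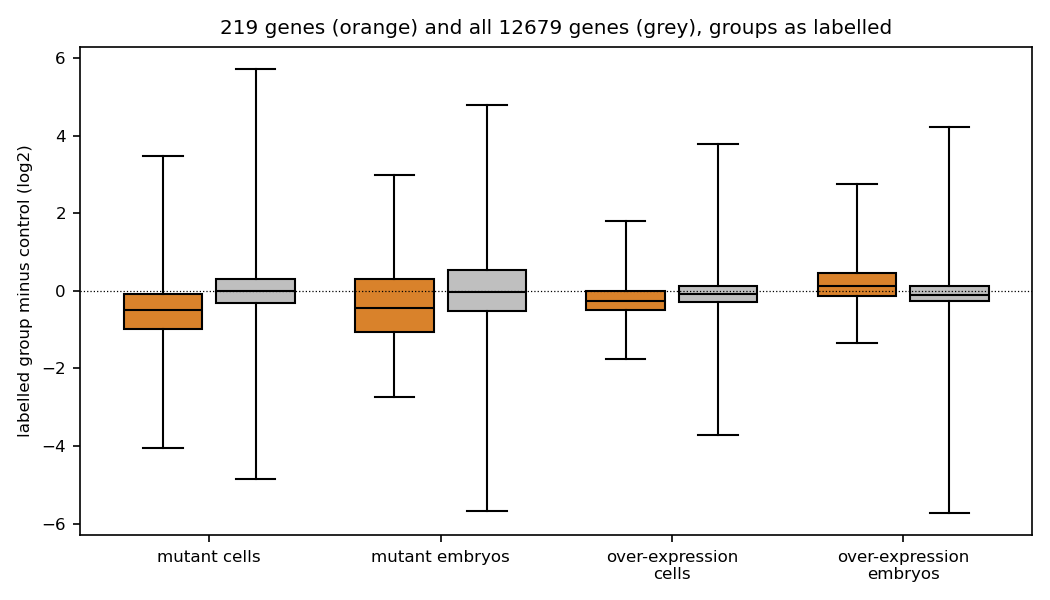
Difference of each labelled ttk group from its control on the log2 scale for the 219 genes (orange) and all 12679 genes (grey). Boxes span the quartiles with the median as a line and whiskers run to the extremes. Orange medians lie at -0.49, -0.44, -0.26 and 0.13 from left to right.

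Single genes moved well beyond these medians. FBgn0034670 showed the largest rise in the cells labelled mutant, at 3.92 and 3.19 against 0.93, -0.53 and -0.19 in control cells, a difference of 3.48. Its embryos stayed low, between -3.61 and -1.82, and its cells in the over-expression experiment lay between -0.31 and 0.45. FBgn0041605, placed by the study under muscle structure development and extracellular structure organization, was at 4.84 and 4.36 against 2.02, 2.54 and 1.39, a difference of 2.62. It was also higher in the labelled mutant embryos, at 1.42 and 1.26 against -0.17 and -0.61. The labelled arrays did not overlap the controls for either gene, and both kept the order of cells above embryos.

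The largest fall in cells labelled mutant was that of FBgn0031560, at -0.92 and -1.68 against 3.11, 3.15 and 1.95 in control cells. It was followed by FBgn0038504, described above, with a difference of -3.80. In embryos labelled mutant the largest falls belonged to the strongly enriched FBgn0028545, at -3.13 and -2.17 against -1.16 and 1.34, and FBgn0040099, at -3.49 and -2.56 against -1.61 and 0.74. In both genes the labelled arrays lay below the controls, and control embryo replicate 2 was the higher control. FBgn0014033 showed the opposite pattern, at 1.85 and 1.10 in labelled mutant embryos against 0.76 and -3.30 in controls, where replicate 2 was the lower.

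In cells labelled over-expression FBgn0040104 was at 1.81 and 2.99 against 0.66 and 0.50 in control cells, and it was also higher in the embryos, at -1.44, -0.50 and -1.51 against -3.74, -3.07 and -3.34. FBgn0034935 fell short of its controls in cells, at 0.92 and 0.80 against 2.64 and 2.60. FBgn0002939 was lower in both, at 0.40 and 0.43 against 2.14 and 2.18 in cells and at -1.11, -1.80 and -0.76 against 0.16, 0.21 and -0.03 in embryos. It was also lower in cells labelled mutant, at 0.53 and 0.68 against 3.39, 2.27 and 2.63. The labelled arrays of these 3 genes did not overlap their controls in any comparison given here.

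The study's own functional lists name few of these genes. They were drawn from genes that changed with ttk, in these arrays or in a knock-down in the S2 cell line, and the copy held gives only part of each list. Of 460 measured genes on them 9 were among the 219 (1.96%, against 1.73% of all genes). FBgn0029167 and FBgn0041605 are described above. FBgn0020416, listed under chitin metabolic process and chosen there on these embryo arrays, differed between cells and embryos by 2.99 (SE 0.40, adjusted p = 0.0055) in the arrays labelled mutant and by 4.81 (SE 0.80, adjusted p = 0.0107) in those labelled over-expression, where its call was lost without either cell array (adjusted p = 0.0524 and 0.0656).

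Developmental terms were given to 5 more of these genes. FBgn0043364, under dorsal closure, differed by 2.09 (SE 0.26) and 2.12 (SE 0.25) and was called in both. Its mutant call was lost on the deposited scale, with a difference of 0.66 (adjusted p = 0.073, limma), and with all groups in 1 fit (adjusted p = 0.0716). FBgn0003118, under cell fate commitment and likewise chosen on these embryo arrays, differed by 1.52 (SE 0.25, adjusted p = 0.0101) and 2.81 (SE 0.28, adjusted p = 0.0043). Its mutant difference was 1.44 without labelled mutant embryo replicate 2, a fit that leaves a single embryo array and from which no call is taken. The mutant call of FBgn0003118 was lost on the deposited scale, with a difference of 0.09 (adjusted p = 0.720, limma), and with all groups in 1 fit (adjusted p = 0.232). FBgn0003165, under nervous system development, differed by 0.94 (SE 0.27, adjusted p = 0.0427) and 2.04 (SE 0.16, adjusted p = 0.0032).

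FBgn0086758, under central nervous system development, differed by 1.06 (SE 0.31, adjusted p = 0.0463) and 1.98 (SE 0.33, adjusted p = 0.0107). The mutant calls of FBgn0003165 and FBgn0086758 were lost without either labelled embryo array or without cell replicate 1 (adjusted p between 0.0577 and 0.173), and the over-expression call of FBgn0086758 was lost without embryo replicate 1 or either cell array (0.051 to 0.0655). FBgn0001078, under system development, was at 3.13 and 2.73 in embryos labelled mutant and at 2.84 and 2.23 in the cells, which overlapped, with a difference of -0.40 (SE 0.30, adjusted p = 0.332), against 1.36 (SE 0.39, adjusted p = 0.0443) in the arrays labelled over-expression. The latter call was lost without embryo replicate 1 or 3 or either cell array, with adjusted p between 0.115 and 0.190. FBgn0027572, under carboxylic acid metabolic process, differed by 2.55 (SE 0.23) and 2.65 (SE 0.21), both called.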

How the data were processed

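The values were deposited by the authors as log2 expression, 1 value per FlyBase gene and array, made with an ENSEMBL-based chip definition; RMA is named in the submitters' processing notes, and the study avoided an early normalization between groups and left out arrays that failed its quality control. Deposited values ran from 1.27 to 14.3 and array medians from 6.17 to 9.29. The 182 control features were left out and each array was centred on its median over 12679 genes, because array medians differed between groups. Cells and embryos were compared within each labelled ttk condition with limma 3.58.1 in R 4.3.3 (two-sided, Benjamini-Hochberg over all genes, called at 0.05). The fit was also run on simulated data with noise independent between genes. That run does not cover replicate deviations shared by many genes. No gene was filtered. The number of arrays, 2 or 3 in each group, limits the precision.

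The members, the lists and the tests were chosen with earlier results of these data known. Named genes are, by rule, at most 2 unnamed genes in each place: the largest control enrichments, the largest and smallest differences in each labelled condition, the largest rises and falls in each ttk comparison, the genes next to the threshold, those with a functional term in the study, and the check genes. The gene table held 209 FlyBase numbers, of which 105 were measured and 0 were members, so lists of cell type markers and gene families, promoter motifs and neighbouring genes were not analysed here. Alternatives were the deposited scale, quantile normalization, other thresholds, a filter at the 25th percentile, all groups in 1 fit, a replicate block, an intensity trend, the study's rule for candidates and leaving out each array.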

Additional observations from a re-analysis of the deposited data

Results flagged for a closer look

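In 3 of the 219 genes every cell array lay above every embryo array in the controls of both experiments, while every cell array labelled ttk mutant lay below every embryo array labelled ttk mutant. The difference of cells minus embryos in the labelled arrays was -0.85 for FBgn0031126, -0.57 for FBgn0026570 and -0.32 for FBgn0051174, against 2.78, 3.10 and 2.62 in the controls of the same experiment. The difference between control and labelled arrays was not tested, since the control arrays had chosen the genes. FBgn0051174, named because of this pattern after its values were seen, was at -1.74 and -1.86 in cells labelled mutant against 0.79, -0.52 and 0.78 in control cells, and at -1.39 and -1.56 in embryos labelled mutant against -2.48 and -2.06 in control embryos.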

How the results depend on the processing

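The set held 99 genes on the deposited scale, 420 at a threshold of 1.5 and 80 at a threshold of 3, and 188 to 304 without 1 array. On the deposited scale 139 members were higher and 12 lower in the arrays labelled mutant, and 182 and 0 in those labelled over-expression. With all groups in 1 fit, the members called higher numbered 156 in the arrays labelled mutant (1240 of all genes). In those labelled over-expression they numbered 217 (5783 of all genes). In the arrays labelled mutant, 169 to 203 of the 219 genes were called higher without 1 array, and 2424 of all genes became 359 on the deposited scale, 1240 with all groups in 1 fit and 786 to 2087 without 1 array. Of all genes called, 2424 were higher and 1505 lower after centring, 359 and 9887 on the deposited scale, and 1706 and 1685 after quantile normalization. In the arrays labelled over-expression, 177 to 216 of the 219 genes were called without 1 array; of all genes 4217 were higher and 959 lower, 667 and 4232 on the deposited scale, 1751 and 1256 after quantile normalization, 2237 higher with the filter, 2584 under the study's rule and 1250 to 4976 without 1 array. The median member difference of 2.78 was 1.35 on the deposited scale and 2.51 to 2.97 without 1 array; that of 2.74 was 1.76 on the deposited scale and 2.29 after quantile normalization, and 2.68 to 2.82 without 1 array.

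Same-numbered arrays of cells and embryos had correlations of deviations of -0.27 and -0.38. Each rests on a single difference between replicates in cells and in embryos, so it cannot decide whether replicate numbers pair the arrays. With the replicate block 200 members and 1766 genes were called higher in the arrays labelled mutant. With crossed numbers, a fit added after the data had been seen, they were 204 and 3228. For the arrays labelled over-expression, limma with the replicate block called 0 members and 0 genes, with 213 members and 3238 genes higher at an unadjusted p under 0.05 and the lowest adjusted p at 0.0975; embryo replicate 3 has no partner among the cells and does not inform that difference.

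Counts in the comparisons with controls, which carry no test, moved with the scale. On the deposited scale cells labelled mutant had 128 genes lower and 3 higher, and embryos labelled mutant 24 lower and 24 higher. Without 1 array cells labelled mutant had 41 to 74 lower and 3 to 8 higher, embryos labelled mutant 19 to 90 lower and 14 to 36 higher, cells labelled over-expression 10 to 13 lower and 4 to 12 higher, and embryos labelled over-expression 7 to 23 higher and 1 to 2 lower. On the deposited scale FBgn0003165 was at -0.49 and FBgn0086758 at -0.37 in the arrays labelled mutant, so both changed sign. On that scale FBgn0026570, at -2.00, and FBgn0001078, at -1.83, gained a call there as lower in cells (adjusted p = 0.0035 and 0.0047, limma). Over the alternatives for single named genes, 209 values kept direction and side of the threshold, 62 lost the call, 2 gained it and 2 changed sign. Those counts cover only the genes named for the largest or smallest difference in a labelled condition or for a functional term. The number of arrays, 2 or 3 per group, limits all of these values.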
